A study of Mus musculus with 20 samples.

Results

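The 10 genes described here encode the mucins of airway mucus and the goblet cell programme that makes, folds and packs them. They are Muc5ac, Muc5b, Clca3 (the older symbol of Clca1), Fcgbp, Itln1, Tff2, Agr2, Ern2, Spdef and Foxa3. They were taken by gene symbol from a table of 24054 genes, with earlier results of these data known, and all 10 are among the 16193 genes with enough counts to be tested. The table also has a separate row named Clca1, which is not among the 10.

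The libraries were made from whole lung of female C57Bl6 mice, in 4 groups of 5 biological replicates. KO_HDM lungs came from mice labelled ALOX15 KO that had received house dust mite (HDM) extract, an inhaled allergen, through the nose each day for 14 days. WT_HDM lungs came from wild-type mice given the same extract. KO_saline and WT_saline lungs came from mice of the same 2 labels given saline, which the titles call PBS. The mice's age, and how and in which cells the Alox15 allele was disrupted, are not given in the sources used here. Replicates of a group are numbered 1 to 5, and values per library are given in that order.

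Muc5ac and Muc5b are the gel-forming mucins of the airways. Muc5b is made at baseline by club cells and glands and keeps the airways clear, and Muc5ac is made by goblet cells that appear during type 2 inflammation. The cytokine IL-13, acting through STAT6, drives club cells of the mouse airway towards a goblet cell state in which the transcription factors Spdef and Foxa3 are active. Mucins are very large glycoproteins, so their production also needs folding factors of the endoplasmic reticulum such as Agr2 and the stress sensor Ern2, and enzymes that add sugar chains.

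Promoter sequences of 300 bases, 250 before and 50 after the gene start, were found for 5 of the 10 genes in RefSeq's table of mouse assembly GRCm38.p6 (Itln1, Foxa3, Fcgbp, Agr2 and Spdef). Muc5ac, Muc5b, Clca3, Tff2 and Ern2 had no entry. The build behind the deposited counts is not known, so these positions belong to GRCm38.p6 alone. Spdef and Foxa3 are shown as the 2 transcription factors of the set, and Itln1 as the gene among these 5 with the largest change under HDM. Each is written 5′ to 3′ on the gene's own strand, and capitals mark motif matches. The Spdef window lies on chromosome 17 (chr17:27728902-27729201, minus strand), the Foxa3 window on chromosome 7 (chr7:19023490-19023789, minus strand) and the Itln1 window on chromosome 1 (chr1:171535245-171535544, minus strand).
Spdef: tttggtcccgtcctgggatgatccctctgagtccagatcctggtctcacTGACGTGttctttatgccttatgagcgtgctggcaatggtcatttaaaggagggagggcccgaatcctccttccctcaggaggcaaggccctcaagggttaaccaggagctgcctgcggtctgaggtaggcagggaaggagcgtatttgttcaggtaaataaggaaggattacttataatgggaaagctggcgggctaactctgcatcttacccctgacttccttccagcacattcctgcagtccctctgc
Foxa3: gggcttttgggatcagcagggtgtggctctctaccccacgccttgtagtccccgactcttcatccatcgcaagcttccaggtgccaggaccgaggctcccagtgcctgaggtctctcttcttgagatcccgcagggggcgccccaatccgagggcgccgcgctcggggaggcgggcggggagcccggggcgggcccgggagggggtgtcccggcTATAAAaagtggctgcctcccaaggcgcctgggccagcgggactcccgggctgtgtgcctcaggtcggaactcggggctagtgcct
Itln1: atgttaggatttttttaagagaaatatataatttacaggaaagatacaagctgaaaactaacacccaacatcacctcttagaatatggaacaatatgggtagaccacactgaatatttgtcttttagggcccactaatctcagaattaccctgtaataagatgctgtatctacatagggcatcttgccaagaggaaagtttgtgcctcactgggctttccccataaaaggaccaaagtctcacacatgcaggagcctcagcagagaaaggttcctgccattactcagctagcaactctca

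Exact letter motifs were searched on both strands of the 5 windows and of all 32851 promoters in the table. The XBP1-type motif TGACGTG was found in Spdef, starting 201 bases before the gene start, and is present in 2.01% of all promoters. The TATA box motif TATAAA was found in Foxa3, starting 36 bases before the gene start, and is present in 13.6% of all promoters. No other match was found in the 5 windows for these motifs or for the STAT6-type motif TTCNNNNGAA (6.95% of all promoters), the STAT-type motif TTCNNNGAA (8.30%), the fork head motif TGTTTAC (3.65%) or the ETS core CCGGAT (6.04%). TTCNNNNGAA and TTCNNNGAA read the same on both strands. These matches describe letters in the windows, not binding.

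Total expected counts lay between 12573113 and 23305673 per library, and the 16 residual degrees of freedom of the fit come from all 20 libraries. Alox15, which encodes a lipoxygenase and is the gene named by the label, was higher and not lower in the libraries labelled knockout. It held 34.98 to 45.48 CPM (counts scaled to library size) in KO_HDM, 7.92 to 29.84 CPM in WT_HDM, 38.39 to 44.7 CPM in KO_saline and 0.825 to 11.09 CPM in WT_saline. The genotype is therefore written as a label throughout. Adipoq, a hormone gene of fat cells, reached 85.1 to 169 CPM in 5 libraries (KO_HDM 5, WT_HDM 2, WT_HDM 4, WT_saline 2 and WT_saline 4) and at most 27.7 CPM in the other 15. WT_HDM 2 also held 3921 CPM of skeletal muscle markers. The tissue markers Scgb1a1 (club cells), Foxj1 (ciliated cells), Epcam (epithelium) and the alveolar type 2 list were present in all 20 libraries. Such libraries touch several results and are named beside them.

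HDM against saline asks how far the mucin and goblet cell genes respond to the allergen. All 10 rose under HDM in the knockout-labelled lungs and all 10 rose in the wild-type lungs. A gene is said to have risen or fallen, or is called, where edgeR's quasi-likelihood test gave a Benjamini-Hochberg adjusted p under 0.05 over the 16193 genes tested. In the knockout-labelled lungs 26.2% of all tested genes were called higher and 25.7% lower. In the wild-type lungs these shares were 13.6% higher and 16.5% lower. The median log2 fold change of the 10 genes was 4.13 in the knockout-labelled lungs, against 0.02 over all genes tested, and 2.57 in the wild-type lungs, against -0.02 over all genes tested. Every HDM library lay above every saline library for all 10 genes in the knockout-labelled lungs, where 22.1% of all genes tested did so in that direction. In the wild-type lungs this held for 9 of the 10 genes, all but Ern2, where 5.93% of all genes tested did so. As each library was left out, the estimate in knockout-labelled lungs was lowest without KO_HDM 5 for all 10 genes, for example 5.78 for Muc5ac and 3.76 for Agr2, and highest without KO_saline 5 for 7 genes, for example 4.89 for Agr2 and 8.26 for Itln1. In wild-type lungs it was highest without WT_saline 2 for 9 genes, for example 3.37 for Agr2, 2.90 for Ern2, 7.39 for Itln1 and 2.19 for Muc5b. In whole lung, more goblet cells and more RNA per goblet cell cannot be told apart.

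**Figure D1:**
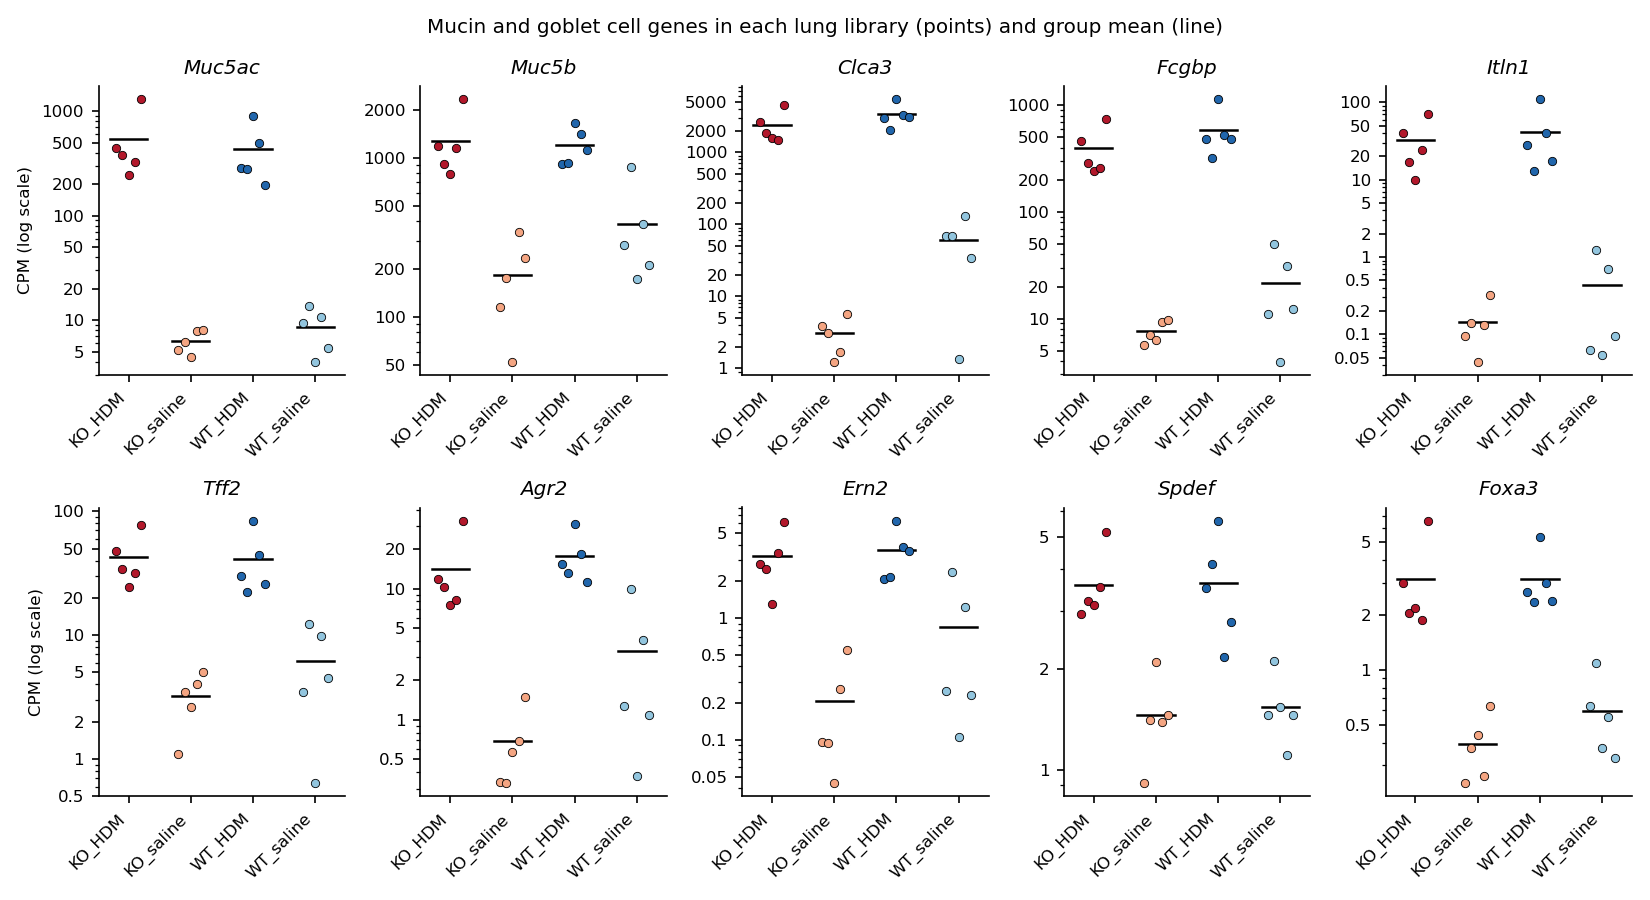
Level of each of the 10 genes in every library, in CPM on a log axis, with 5 points per group (replicates 1 to 5 from left to right) and a line at the group mean. The HDM groups stand above the saline groups in both genotype labels, Clca3 spans 1.33 to 131 CPM within WT_saline, and KO_HDM 5 and WT_HDM 3 are the highest library of their group for all 10 genes.

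Of the 2 mucins, Muc5ac changed more. Muc5ac, the inducible goblet cell mucin, stood at 440, 379, 243, 329 and 1304 CPM in KO_HDM and at 5.12, 6.15, 4.40, 7.78 and 8.07 CPM in KO_saline. In wild-type lungs it stood at 286, 283, 895, 494 and 198 CPM in WT_HDM and at 9.33, 13.7, 3.99, 10.7 and 5.42 CPM in WT_saline. No HDM library came near a saline library, and KO_HDM 5 and WT_HDM 3 stood well above the rest of their groups. The log2 fold change was 6.42 ± 0.59 (SE) in knockout-labelled lungs, an 85.4-fold rise (95% interval of the log2 value 5.19 to 7.65, adjusted p = 1.67e-07). In wild-type lungs it was 5.64 ± 0.56, a 49.9-fold rise (21.9 to 113, adjusted p = 1.88e-06).

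Muc5b, the mucin of the resting airway, was already abundant under saline. It measured 1183, 909, 784, 1148 and 2329 CPM in KO_HDM, against 115, 176, 52.2, 340 and 234 CPM in KO_saline. In wild-type lungs the values were 911, 919, 1659, 1402 and 1115 CPM in WT_HDM, against 283, 873, 174, 384 and 213 CPM in WT_saline. The groups did not overlap, but WT_saline 2 came within a narrow margin of the lowest WT_HDM library. The rise was 6.93-fold in knockout-labelled lungs (95% interval 3.38 to 14.2, adjusted p = 0.000134) and 3.12-fold in wild-type lungs (1.57 to 6.20, adjusted p = 0.0140). The wild-type log2 fold change was 2.45 without the 5 libraries rich in Adipoq, against 1.64 with them.

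A further 4 genes encode proteins that goblet cells secrete along with the mucins. Clca3, a secreted metalloprotease of mucus, had the highest mean level per unit of length in both HDM groups. It stood at 2651, 1864, 1587, 1469 and 4513 CPM in KO_HDM and at 3.88, 3.10, 1.23, 1.70 and 5.70 CPM in KO_saline. In wild-type lungs it stood at 3019, 2045, 5471, 3291 and 3050 CPM in WT_HDM and at 68.4, 67.8, 1.33, 131 and 34.0 CPM in WT_saline. All knockout-labelled saline libraries were low, whereas the wild-type saline libraries spread widely, with WT_saline 3 alone at the knockout-labelled level. The fitted rise was 775-fold in knockout-labelled lungs (95% interval 202 to 2970, adjusted p = 2.69e-07) and 55.7-fold in wild-type lungs (18.1 to 172, adjusted p = 3.54e-05). In wild-type lungs the log2 fold change was 6.80 without the libraries rich in Adipoq, against 5.80 with them. The separate row named Clca1 was not called under HDM in either label. Its mean and SD were 5.68 ± 0.93 CPM in KO_HDM, 4.175 ± 1.06 CPM in KO_saline, 5.36 ± 0.93 CPM in WT_HDM and 4.27 ± 2.42 CPM in WT_saline.

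Fcgbp, a large mucus protein that crosslinks to mucins, averaged 398 ± 212 CPM in KO_HDM and 7.61 ± 1.83 CPM in KO_saline (SD, n = 5 each). It averaged 593 ± 318 CPM in WT_HDM and 21.7 ± 18.7 CPM in WT_saline. The lowest HDM library, KO_HDM 3 at 245 CPM, stood above the highest saline library, WT_saline 2 at 49.7 CPM. The log2 fold change was 5.71 ± 0.62 in knockout-labelled lungs (adjusted p = 1.06e-06) and 4.77 ± 0.59 in wild-type lungs (adjusted p = 1.67e-05). Fcgbp was the only one of the 10 whose deposited expected counts were mostly fractional, whole to within 1e-06 in 5% of the libraries against 100% for the other 9 genes. RSEM gives fractional counts where reads match more than 1 gene, so its level is less certain.

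Itln1, a lectin that binds microbial sugars, was close to undetected under saline. It had 1 to 7 counts per library in KO_saline and 1 to 24 in WT_saline. Under HDM it stood at 39.8, 17.1, 9.92, 24.4 and 71.5 CPM in KO_HDM and at 28.4, 12.8, 110.3, 40.8 and 17.4 CPM in WT_HDM, with no library near the saline level. The log2 fold change was 7.74 ± 0.94 in knockout-labelled lungs (adjusted p = 3.53e-06) and 6.55 ± 0.84 in wild-type lungs (adjusted p = 2.51e-05), both resting on few saline counts. The wild-type value was 9.35 without the 5 libraries rich in Adipoq. Tff2, a trefoil peptide that takes part in mucosal repair, averaged 43.1 ± 20.6 CPM in KO_HDM and 3.26 ± 1.49 CPM in KO_saline. It averaged 41.2 ± 25.3 CPM in WT_HDM and 6.14 ± 4.75 CPM in WT_saline. Its rise was 13.2-fold in knockout-labelled lungs (adjusted p = 6.93e-05) and 6.65-fold in wild-type lungs (adjusted p = 0.00190).

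Agr2 and Ern2 serve mucin folding in the endoplasmic reticulum. Agr2, a protein disulfide isomerase needed for mucin assembly, stood at 11.9, 10.2, 7.49, 8.16 and 32.9 CPM in KO_HDM and at 0.335, 0.329, 0.572, 0.696 and 1.504 CPM in KO_saline. In wild-type lungs it stood at 15.5, 13.2, 31.2, 18.3 and 11.1 CPM in WT_HDM and at 1.27, 10, 0.372, 4.05 and 1.08 CPM in WT_saline. The wild-type groups were separated by a small gap, since WT_saline 2 reached nearly the level of WT_HDM 5. The rise was 20.3-fold in knockout-labelled lungs (95% interval 6.81 to 60.7, adjusted p = 0.000117) and 5.28-fold in wild-type lungs (2.03 to 13.8, adjusted p = 0.0106). The log2 fold change in wild-type lungs was 4.39 without the 5 libraries rich in Adipoq, against 2.40 with them.

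Ern2, the goblet cell form of the stress sensor IRE1, was the least abundant gene of the set per unit of length. It stood at 2.78, 2.53, 1.31, 3.42 and 6.09 CPM in KO_HDM and at 0.0957, 0.0939, 0.0440, 0.261 and 0.547 CPM in KO_saline. The wild-type values were 2.101, 2.18, 6.29, 3.83 and 3.52 CPM in WT_HDM and 0.254, 2.38, 0.106, 1.24 and 0.236 CPM in WT_saline. WT_saline 2 lay above 2 WT_HDM libraries, so these groups overlapped. The rise was 15-fold in knockout-labelled lungs (adjusted p = 0.000222) and 4.17-fold in wild-type lungs (adjusted p = 0.0207). Without KO_saline 5 the log2 fold change in knockout-labelled lungs was 4.66, against 3.91 with it. The wild-type call was lost without WT_saline 5 (adjusted p = 0.0533) and without WT_HDM 3 (adjusted p = 0.0578). It held without the 5 libraries rich in Adipoq, with a log2 fold change of 4.26, against 2.06 with them.

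The 2 transcription factors changed less than most of the proteins they are known to serve. Spdef, an ETS factor required for goblet cell differentiation in the mouse airway, stood at 2.94, 3.22, 3.11, 3.53 and 5.17 CPM in KO_HDM and at 0.910, 1.41, 2.11, 1.39 and 1.46 CPM in KO_saline. In wild-type lungs it stood at 3.52, 4.16, 5.60, 2.17 and 2.77 CPM in WT_HDM and at 1.46, 2.12, 1.54, 1.10 and 1.46 CPM in WT_saline. The groups were separate in both labels, in wild type by a margin between WT_HDM 4 and WT_saline 2 only. Its rise was 2.46-fold in knockout-labelled lungs (95% interval 1.69 to 3.58, adjusted p = 0.000373) and 2.35-fold in wild-type lungs (1.61 to 3.44, adjusted p = 0.00173), the smallest of the 10 in each. Foxa3, a fork head factor that promotes goblet cell differentiation, averaged 3.14 ± 1.97 CPM in KO_HDM and 0.391 ± 0.161 CPM in KO_saline. It averaged 3.15 ± 1.26 CPM in WT_HDM and 0.595 ± 0.303 CPM in WT_saline. Its rise was 7.89-fold in knockout-labelled lungs (4.31 to 14.4, adjusted p = 1.05e-05) and 5.24-fold in wild-type lungs (2.91 to 9.43, adjusted p = 0.000274).

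**Figure D2:**
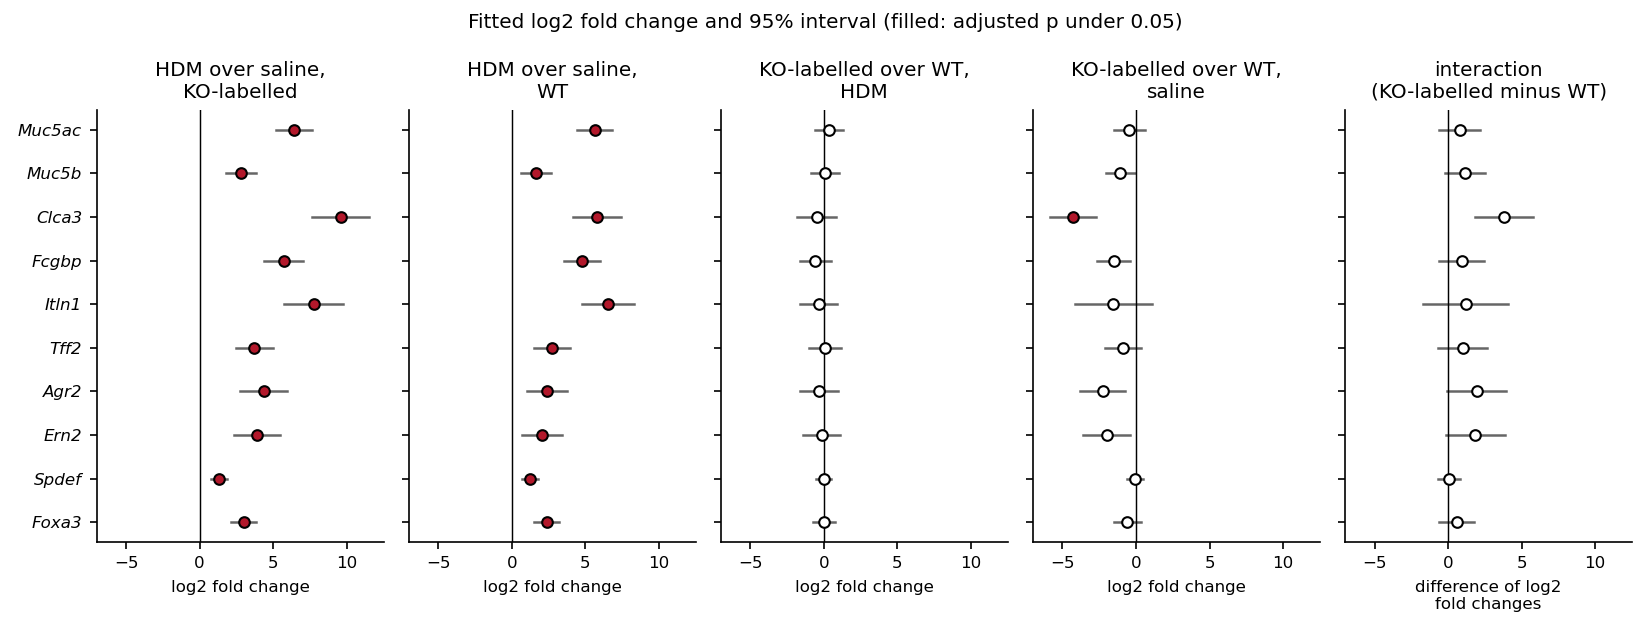
Fitted log2 fold change of each gene (points) with its 95% interval (lines) in the 4 comparisons and the interaction, with called genes filled. All 10 points are filled in both HDM panels, none in the panel of knockout-labelled over wild-type lungs under HDM, and only Clca3, at -4.28, in the saline panel.

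Knockout-labelled against wild-type lungs under HDM asks whether the label changes the response that was reached. No gene of the set was called by edgeR, and none had an unadjusted p under 0.05. DESeq2 and limma voom called none either. Over all tested genes 4.79% were called higher and 1.88% lower. The estimates ran from -0.58 for Fcgbp to 0.32 for Muc5ac. The intervals are wide: that of Muc5ac ran from -0.64 to 1.28 on the log2 scale, that of Muc5b from -0.89 to 1.05 and that of Clca3 from -1.80 to 0.84. The narrowest, that of Spdef, ran from -0.54 to 0.52. Differences within these intervals were not excluded. Without the 5 libraries rich in Adipoq all 10 estimates lay below 0, from -1.18 for Itln1 to -0.28 for Muc5b, and none was called.

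Knockout-labelled against wild-type lungs under saline compares the resting level. Clca3 was the only gene called, with 3.12 ± 1.79 CPM in KO_saline and 60.5 ± 48.2 CPM in WT_saline (SD, n = 5 each). Its log2 fold change was -4.28 ± 0.75, with an adjusted p of 0.00442. Over all tested genes 0.593% were called higher and 0.315% lower. Of the 5 WT_saline libraries 4 stood above every KO_saline library, and WT_saline 3, at 1.33 CPM, lay inside the KO_saline range of 1.23 to 5.70 CPM. The exact two-sided permutation test on log2 CPM gave p = 0.0397, where the smallest p that 5 against 5 libraries allow is 0.00794. WT_saline 2 and WT_saline 4, rich in Adipoq, held 67.8 and 131 CPM of Clca3, and WT_saline 1 and WT_saline 5, with Adipoq at 1.90 and 2.78 CPM, held 68.4 and 34.0 CPM. Without the 5 libraries rich in Adipoq the log2 fold change was -3.45 and the call was lost (adjusted p = 0.0667). It was also lost with limma voom (adjusted p = 0.280) and when the 10 saline libraries were fitted alone (adjusted p = 0.119).

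The other 9 genes also had estimates below 0 under saline, from -2.28 for Agr2 to -0.08 for Spdef, and none was called. Agr2, Ern2, Fcgbp and Muc5b had an unadjusted p under 0.05, with adjusted p-values of 0.186, 0.232, 0.213 and 0.287. These 4 estimates lay between -0.37 and 0.089 without the 5 libraries rich in Adipoq. Those of Muc5ac, Itln1, Tff2 and Ern2 then lay above 0. Both saline libraries rich in Adipoq are wild type, so tissue rich in Adipoq is partly confounded with the label under saline. WT_saline 1, 3 and 5 are not rich in Adipoq and remain in the fit without such libraries. How far such tissue sets these estimates was not tested.

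The interaction asks whether the HDM response itself differs between the labels. No gene of the set was called, against 1.00% of all genes called higher and 0.235% lower. All 10 estimates lay above 0, as a larger log2 fold change in knockout-labelled lungs, with a median of 1.07 against 0.03 over all genes. Clca3 had the largest, 3.80 ± 0.95 (95% interval 1.80 to 5.80, adjusted p = 0.0595), and was the only gene with an unadjusted p under 0.05. It was called by DESeq2 (adjusted p = 0.00516) and without WT_saline 3 (adjusted p = 0.00657), and not by limma voom. Without the 5 libraries rich in Adipoq 9 of the 10 estimates turned negative, and only that of Clca3 stayed positive, at 2.43 (adjusted p = 0.289).

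Because members of a set share a library, the balance between them was compared within each library as a ratio of counts, for 6 pairs of genes in 4 comparisons (24 exact two-sided permutation tests). These pairs were chosen after the values had been seen, and adjusted p-values are over the 24 tests. Counts are not divided by length, so a ratio compares libraries and not the 2 genes. The 2 mucins shifted towards Muc5ac under HDM. Muc5b counts per Muc5ac count were 2.69, 2.40, 3.22, 3.49 and 1.79 in KO_HDM and 22.4, 28.5, 11.8, 43.5 and 29.0 in KO_saline. They were 3.18, 3.25, 1.85, 2.84 and 5.64 in WT_HDM and 30.2, 63.5, 43.4, 35.7 and 39.1 in WT_saline. Neither pair of groups overlapped (exact p = 0.00794, adjusted p = 0.0159 in each label). The log2 differences were -3.23 in knockout-labelled lungs and -3.71 in wild-type lungs, and they ran from -3.50 to -3.03 and from -3.92 to -3.52 as each library was left out.

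The transcription factors shifted towards Foxa3. Spdef counts per Foxa3 count were 0.788 to 1.87 in KO_HDM, against 2.24 to 5.00 in KO_saline, and 0.726 to 1.75 in WT_HDM, against 1.93 to 4.2 in WT_saline. Both differences had an exact p of 0.00794 and an adjusted p of 0.0159.

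Under HDM 3 of these ratios had an adjusted p under 0.05 between the labels in the exact permutation test, although no single gene was called. The adjustment does not cover the choice of pairs after the values had been seen, so these 3 are descriptive. Muc5ac counts per Agr2 count were 36.9, 37.0, 32.4, 40.2 and 39.6 in KO_HDM and 18.5, 21.4, 28.6, 27.0 and 17.7 in WT_HDM. Every KO_HDM library was higher (log2 difference 0.74, exact p = 0.00794, adjusted p = 0.0159), and the difference ran from 0.66 to 0.83 as each library was left out. Clca3 counts per Muc5ac count were lower, at 6.03, 4.91, 6.53, 4.47 and 3.46 in KO_HDM and 10.5, 7.24, 6.11, 6.66 and 15.4 in WT_HDM. These groups overlapped through KO_HDM 3 and WT_HDM 3 (log2 difference -0.80, exact p = 0.0159, adjusted p = 0.0294), and the exact p was 0.0556 without KO_HDM 4 or without KO_HDM 5. Fcgbp counts per Muc5b count were lower as well, at 0.224 to 0.388 in KO_HDM and 0.353 to 0.690 in WT_HDM (log2 difference -0.59, exact p = 0.0238, adjusted p = 0.0408). The exact p of this ratio was 0.0556 without KO_HDM 4. Under saline, in the same permutation test, the log2 differences between the labels were 1.28 for Muc5ac per Agr2 and -3.15 for Clca3 per Muc5ac. Their adjusted p-values were 0.0834 and 0.0507. For Fcgbp per Muc5b the saline difference was 0.037 (adjusted p = 0.921). Rn45s, a ribosomal RNA precursor, took 1.82% to 2.98% of counts in KO_HDM and 2.72% to 6.08% in WT_HDM, and its part in these ratios was not tested. In WT_HDM, in replicate order, the Rn45s share was 3.38%, 6.08%, 5.13%, 5.09% and 2.72%. Without the 3 HDM libraries rich in Adipoq the difference was 0.79 for Muc5ac per Agr2 (exact p = 0.0286), -0.88 for Clca3 per Muc5ac (0.0571) and -0.83 for Fcgbp per Muc5b (0.0286), each as an exact p from the remaining 4 against 3 libraries.

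**Figure D3:**
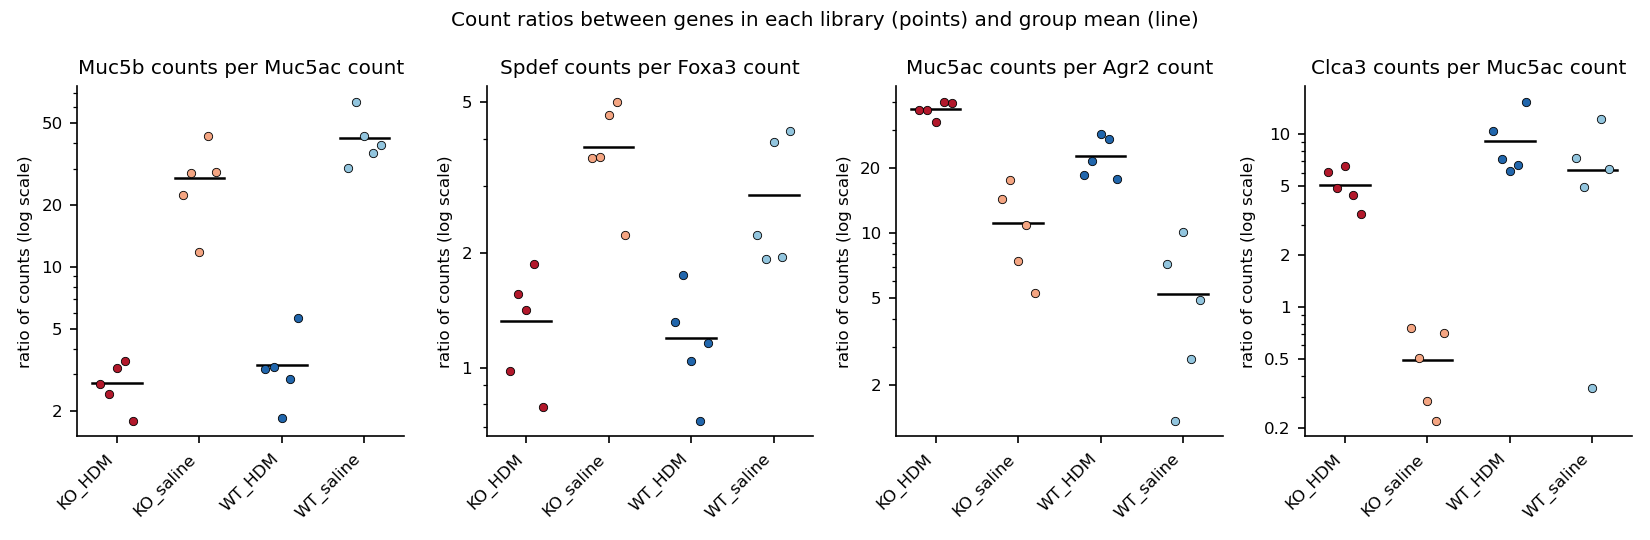
Ratio of counts of 2 genes within each library, on log axes, with 5 points per group (replicates 1 to 5 from left to right) and a line at the group mean. Muc5b per Muc5ac and Spdef per Foxa3 are lower in both HDM groups, Muc5ac per Agr2 is 32.4 to 40.2 in KO_HDM and 17.7 to 28.6 in WT_HDM, and Clca3 per Muc5ac is 3.46 to 6.53 in KO_HDM and 6.11 to 15.4 in WT_HDM.

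To set the genes side by side, mean CPM was divided by the length of the longest protein-coding transcript. Under HDM Clca3 led with 661 CPM per kb in KO_HDM and 923 in WT_HDM. Muc5b followed with 84.9 in KO_HDM and 80.3 in WT_HDM, Tff2 with 73.7 and 70.5, Fcgbp with 50.2 and 74.8, and Muc5ac with 50.1 and 40.1 in the same 2 groups. Muc5b, Tff2, Fcgbp and Muc5ac do not differ in this order beyond the spread of their libraries, whose SDs are 27.0% to 80.5% of the mean. Itln1 (28.5 in KO_HDM, 36.7 in WT_HDM) and Agr2 (18.0 and 22.8) came next, and Spdef (1.87 and 1.90), Foxa3 (1.54 and 1.55) and Ern2 (1.11 and 1.23) were lowest. Under saline Muc5b led in KO_saline, at 12.3 CPM per kb, and in WT_saline, at 25.7. The next were Tff2 at 5.57 in KO_saline, and Clca3 at 16.6 and Tff2 at 10.5 in WT_saline. In the gene order of GRCm38.p6 Muc5ac and Muc5b are direct neighbours on chromosome 7, next to Muc2, which had at most 13 counts in any library. Tff2 lies between Tff3 and Tff1 on chromosome 17.

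Within a group the 10 genes tended to be high or low together. KO_HDM 5 and WT_HDM 3 were the highest library of their group for all 10 genes, WT_saline 2 for 9 and KO_saline 5 for 8. WT_saline 3 was the lowest for 8 genes and KO_HDM 3 for 7. Over the 20 libraries, deviations from the group mean had a median pairwise Pearson r of 0.782 among the 9 genes other than Spdef (36 pairs, 0.493 to 0.940). With Spdef the r was -0.04 to 0.60, with a median of 0.305. These correlations describe genes that share a library and its tissue content, and carry no test.

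Some of the libraries high in these genes also held more of other tissue markers. The summed level of 5 basal cell markers, of which Trp63 and Krt5 define the cells that line large airways, was 7.68 to 33.9 CPM in the 5 libraries rich in Adipoq and 1.52 to 13.7 CPM in the other 15. In WT_saline it was 13.8 CPM in replicate 2 and 10.7 CPM in replicate 4, against 1.52 to 1.86 CPM in the other 3. In the HDM groups it was highest in KO_HDM 5, at 33.9 CPM, WT_HDM 4, at 26.8 CPM, and WT_HDM 3, at 13.7 CPM. In the 10 genes WT_HDM 4 had a mean standardised deviation of 0.02 from its group mean. Its mean rank among the 5 WT_HDM libraries was 2.3, where 1 is the highest. Krt5 was at 0 counts in at least 1 library of KO_HDM, WT_HDM and WT_saline. Airway cartilage markers summed to 32.1 to 139 CPM in the libraries rich in Adipoq and to 25.7 to 70.8 CPM in the others. Of the 3 basal cell markers tested, Trp63 (2.28, adjusted p = 0.0276) and Ngfr (1.37, adjusted p = 0.0175) rose under HDM in knockout-labelled lungs, alongside the 10 genes, and 0 were called in wild-type lungs by edgeR, where 0 had an unadjusted p under 0.05. How far the content of large airway in the dissected piece sets the level of the 10 genes was not tested. All 10 genes rose in both labels without the 5 libraries rich in Adipoq, with a median log2 fold change of 3.64 in knockout-labelled lungs and 4.33 in wild-type lungs.

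**Figure D4:**
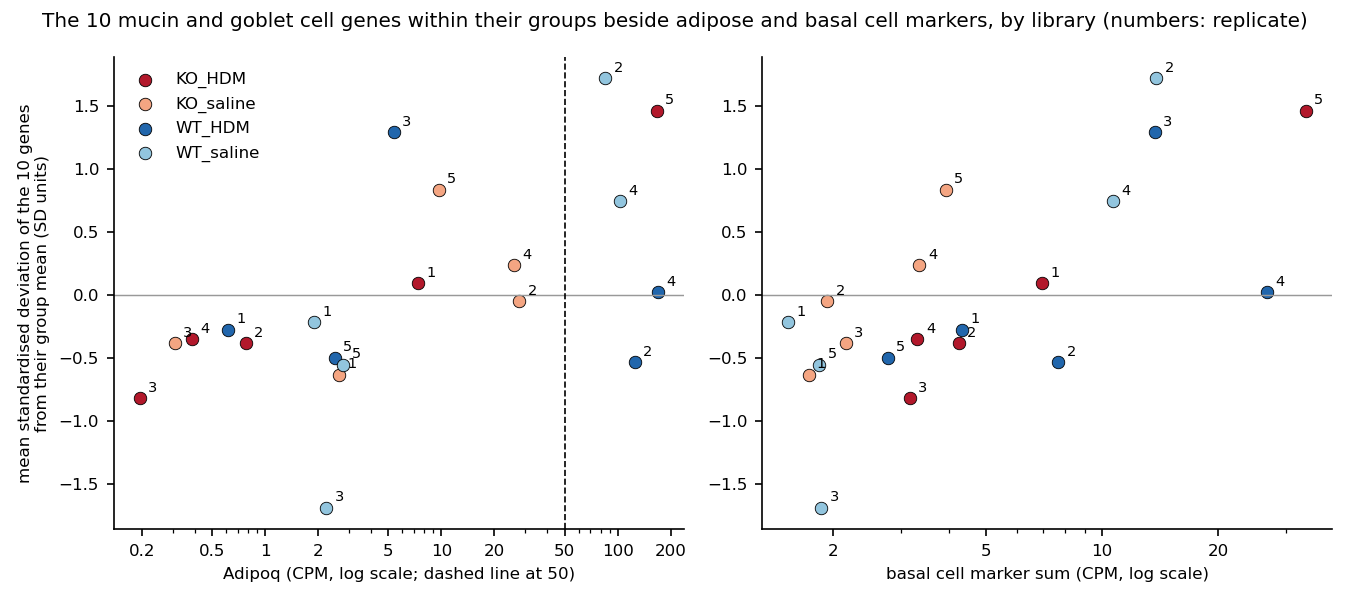
Mean standardised deviation of the 10 genes from their group mean (y axis, in SD units, 0 at the group mean) against Adipoq (left, CPM) and the summed basal cell markers (right, CPM), both on log axes, with 1 numbered point per library. KO_HDM 5 and WT_saline 2 and 4 are high on all 3 measures, WT_HDM 3 is high in the genes and the basal cell markers with Adipoq at 5.36 CPM, and WT_HDM 2 is below its group mean with Adipoq at 125 CPM.

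The 10 other genes whose deviations followed the set most closely over the 20 libraries were AU040972, Wdr93, BC048546, Reg3g, Wdr72, Ptprn2, Adh7, Tmc5, Atp10b and Bpifa1. Their Pearson r with the mean deviation of the set was 0.934 for AU040972, 0.930 for Wdr93, 0.927 for BC048546 and 0.923 for Reg3g, and 0.890 to 0.917 for the rest. Of these 10 genes Wdr93, Wdr72, Adh7 and Bpifa1 were not called under HDM in either label. Reg3g, a secreted antimicrobial lectin, rose in knockout-labelled lungs (log2 fold change 4.33, adjusted p = 0.00822), with an estimate of 1.92 in wild-type lungs that was not called (adjusted p = 0.215). Adh7, an alcohol dehydrogenase of upper airway and stomach epithelium, had log2 fold changes of -0.04 and -0.15 in knockout-labelled and wild-type lungs. Bpifa1, a secreted protein of the upper airways, had estimates of -0.32 and -1.97 in the same order.

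Other mucins and goblet cell products were followed as a list of 22 genes, 14 of them tested. In knockout-labelled lungs 8 rose and 1 fell, and in wild-type lungs 7 rose and 0 fell by edgeR, DESeq2 or limma voom (by edgeR 1 had an unadjusted p under 0.05 and an estimate below 0, and 1 was called without WT_saline 1). The medians were 2.22 and 1.19, against 0.02 and -0.02 over all genes. Tff1, a trefoil peptide, had 8 to 63 counts per library in KO_HDM and 6 to 41 in WT_HDM, and 0 in every saline library. With a floor of 3 counts over the saline group it was at least 48.2-fold higher in KO_HDM and at least 36-fold higher in WT_HDM. Capn9, a calpain of mucosal epithelium, had 449 counts over KO_HDM and 2 over KO_saline, a ratio of 256 (95% counting interval 70.3 to 2120), and rose in wild-type lungs with a log2 fold change of 6.90. Clca4 rose by 6.61 and 3.85 and Gp2 by 5.00 and 3.58 on the log2 scale in knockout-labelled and wild-type lungs. The anion exchanger Slc26a4 rose by 4.00 and 4.51 in the same order. The 95% intervals of Clca4 were 3.15 to 10.07 and 0.97 to 6.725 (edgeR adjusted p = 0.0415 in wild-type lungs). Clca4 held 11.3 ± 16.6 CPM in KO_HDM and 7.37 ± 9.58 CPM in WT_HDM. It held 0.109 ± 0.105 CPM in KO_saline and 0.488 ± 0.668 CPM in WT_saline. Muc4, a membrane mucin, held 274 ± 56.6 CPM in KO_HDM, 227 ± 28.0 CPM in WT_HDM, 97.0 ± 17.3 CPM in KO_saline and 115 ± 34.7 CPM in WT_saline and rose in both labels. It was named after its values were seen. Retnlb, a goblet cell resistin, was below the filter, with 32 counts over KO_HDM and 3 over KO_saline, a ratio of 12.1 (3.80 to 62.0), and 56 over WT_HDM and 2 over WT_saline, a ratio of 32.2 (8.51 to 272). The intervals of the count ratios cover counting error only.

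Among enzymes that build the sugar chains of mucins, more rose than fell. Of 24 tested, 14 rose and 4 fell in knockout-labelled lungs, where 26.2% of all genes rose and 25.7% fell, and 11 rose and 2 fell in wild-type lungs, where 13.6% of all genes rose and 16.5% fell. The list's medians were 0.44 and 0.25 on the log2 scale. St6galnac1, which caps the first sugar with sialic acid, rose by 5.37 ± 1.18 in knockout-labelled and 5.46 ± 1.26 in wild-type lungs on the log2 scale. Its levels were 2.52 ± 3.24 CPM in KO_HDM, 2.12 ± 2.51 CPM in WT_HDM, 0.0544 ± 0.0581 CPM in KO_saline and 0.0426 ± 0.0442 CPM in WT_saline. Gcnt3, which branches the chains, rose by 5.28 and 4.02, and the fucosyltransferases Fut9 and Fut2 rose by 4.10 and 2.23 and by 2.17 and 1.64, in knockout-labelled and wild-type lungs. The sulfotransferase Chst4 fell by 2.37 and 1.00. B4galt1 was higher in KO_HDM than in WT_HDM (log2 fold change 0.32, adjusted p = 0.0329), a call lost without the 5 libraries rich in Adipoq and without WT_HDM 4, WT_HDM 5, KO_HDM 2, KO_HDM 3 or KO_HDM 4, each left out alone. The number that fell was 2 in knockout-labelled lungs without KO_saline 1, and 1 in wild-type lungs without WT_saline 3, WT_saline 5 or WT_HDM 3. The wild-type count of genes that rose was 5 when the 10 wild-type libraries were fitted alone.

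Among folding and endoplasmic reticulum genes other than Agr2 and Ern2, 12 were tested. In knockout-labelled lungs 6 rose and 2 fell, and in wild-type lungs 5 rose and 0 fell by edgeR, DESeq2 or limma voom (by edgeR 1 had an unadjusted p under 0.05 and an estimate below 0, and 1 was called without WT_saline 1 or WT_saline 3). Over all genes 26.2% rose and 25.7% fell in knockout-labelled lungs, and 13.6% rose and 16.5% fell in wild-type lungs. Pdia4, a disulfide isomerase, stood at 332 ± 49.2 CPM in KO_HDM and 152 ± 12.48 CPM in KO_saline, and at 256 ± 54.9 CPM in WT_HDM and 149 ± 19.4 CPM in WT_saline. The transcription factor Xbp1 rose by 0.66 and 0.50 and the chaperone Hspa5 by 0.58 and 0.67 in knockout-labelled and wild-type lungs. Under HDM 3 of the 12 genes were higher in knockout-labelled lungs, where 4.79% of all genes were called higher, namely Xbp1 (0.37, adjusted p = 0.0274), Sec24d (0.31, adjusted p = 0.0244) and Dnajc10 (0.23, adjusted p = 0.0400). There 1 gene of the list was called without the 5 libraries rich in Adipoq, without WT_HDM 3 or without KO_HDM 3, and 0 were called without WT_HDM 4 or KO_HDM 4. The number that rose in wild-type lungs was 3 without the libraries rich in Adipoq, and the number that fell in knockout-labelled lungs was 1 without KO_saline 3 or KO_saline 5. These genes are expressed in many cell types.

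The genes of mucin granule transport and release changed in both directions, and whole-lung libraries do not show in which cells. Of 20 tested, 7 rose and 7 fell in knockout-labelled lungs, where 26.2% of all genes rose and 25.7% fell, and 5 rose and 4 fell in wild-type lungs, where 13.6% of all genes rose and 16.5% fell. In wild-type lungs 7 fell by DESeq2, 2 fell without WT_saline 5 or WT_HDM 3, and 2 rose when the wild-type libraries were fitted alone. Scin, an actin-severing protein, rose by 3.76 ± 0.37 and 3.65 ± 0.37, the motor Myo5a by 1.94 and 1.32, and the calcium sensor Syt2 by 1.90 and 1.80 in knockout-labelled and wild-type lungs. Marcks, an actin-binding protein of granule release, held 347 ± 51.1 CPM in KO_HDM, 235 ± 34.7 CPM in WT_HDM, 165 ± 16.8 CPM in KO_saline and 191 ± 24.9 CPM in WT_saline. It was higher in KO_HDM than in WT_HDM (log2 fold change 0.56, adjusted p = 0.00723) and was called in the interaction (0.78 ± 0.17, adjusted p = 0.0277). Snap23, a membrane fusion protein, was also higher in KO_HDM, with 80.2 ± 8.28 CPM, than in WT_HDM, with 66.4 ± 5.21 CPM (0.27, adjusted p = 0.0420). Vamp2, a vesicle membrane protein, was lower in KO_HDM, with 52.6 ± 2.62 CPM, than in WT_HDM, with 69.3 ± 6.77 CPM (-0.40, adjusted p = 0.00506). Over all genes 4.79% were called higher and 1.88% lower in that contrast. Under saline Syt7, a calcium sensor, was higher in KO_saline, with 46.9 ± 3.43 CPM, than in WT_saline, with 35.1 ± 4.79 CPM (0.42, adjusted p = 0.0478), a call lost without the 5 libraries rich in Adipoq and, each left out alone, without WT_saline 1, 2 or 4, WT_HDM 1, 2 or 3, KO_HDM 2 or 5, or any KO_saline library. The interaction call on this list was lost without WT_saline 1, WT_HDM 4, KO_saline 2, KO_HDM 3 or KO_HDM 4, each left out alone.

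**Figure D5:**
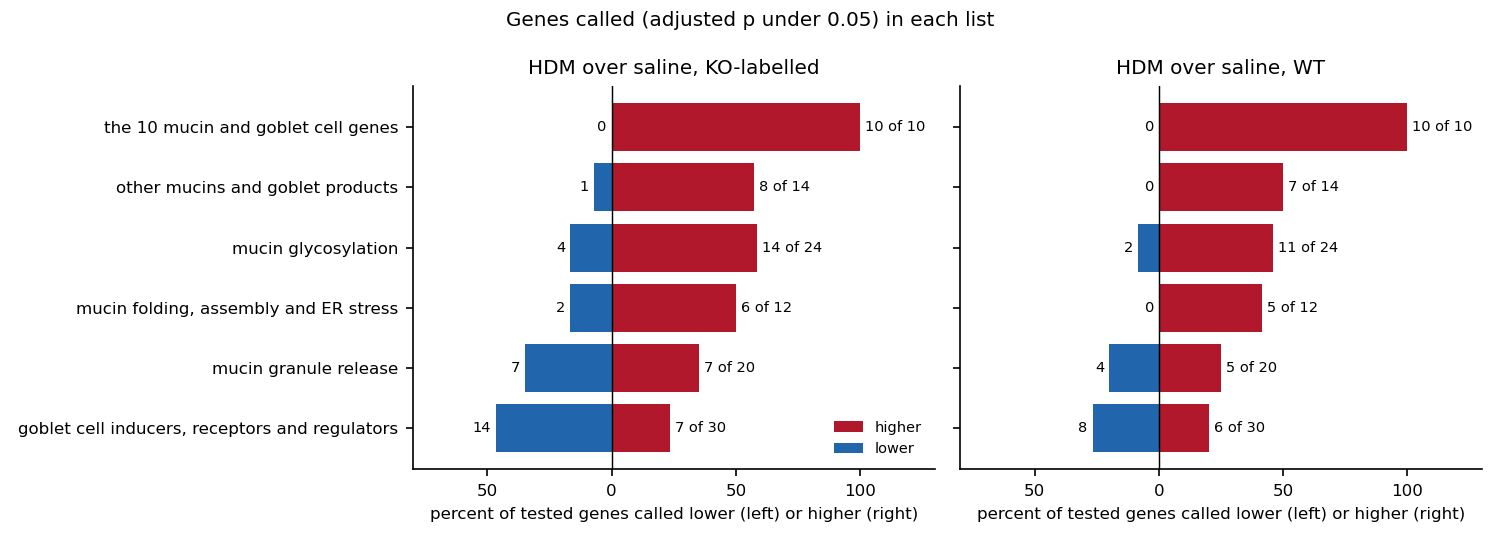
Share of the tested genes of each list called higher (right, red, with the count of how many tested) or lower (left, blue, with the count) under HDM in knockout-labelled lungs (left panel) and wild-type lungs (right panel). The 10 mucin and goblet cell genes are all called higher in both, glycosylation genes are called higher 14 and 11 times of 24, and of 30 regulators 7 are called higher and 14 lower in knockout-labelled lungs and 6 higher and 8 lower in wild-type lungs, where 26.2% and 25.7%, and 13.6% and 16.5%, of all genes are called.

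Inducers, receptors and regulators of the goblet cell state changed in both directions. Of 30 tested, 7 rose and 14 fell in knockout-labelled lungs, where 26.2% of all genes rose and 25.7% fell. In wild-type lungs 6 rose and 8 fell, a balance close to the 13.6% of all genes that rose and 16.5% that fell there. The list's medians were -0.02 and 0.03 on the log2 scale in knockout-labelled and wild-type lungs, against 0.02 and -0.02 over all genes. Il13, the cytokine that induces goblet cells, was below the filter and was seen in all 10 HDM libraries. It had 31 counts over KO_HDM and none over KO_saline, at least 11.8-fold higher. In wild-type lungs it had 34 over WT_HDM and 2 over WT_saline, a ratio of 19.5 (95% counting interval 5.01 to 168). The cytokine genes Il4 and Il17a were also below the filter, with at most 8 and 42 counts in any library. Il17a had 24 counts over WT_HDM and 0 over WT_saline, at least 9.2-fold higher with the same floor of 3 counts. The proliferation factor Foxm1 rose by 2.03 and 1.22, the nucleotide receptor P2ry2 by 0.44 and 0.87, and the interleukin 13 receptor gene Il13ra1 by 0.76 in knockout-labelled lungs. Elf5 fell by 0.92 and 0.65, Egfr by 0.88 and 0.58, and its ligand Tgfa by 0.92 and 0.60 in knockout-labelled and wild-type lungs. Egfr was also lower in KO_HDM than in WT_HDM (log2 fold change -0.38, adjusted p = 0.0159), and no gene of the list was called lower there without KO_HDM 4. Foxa2, a fork head factor that restrains goblet cell differentiation in the mouse lung, held 26.6 ± 4.54 CPM in KO_HDM and 42.6 ± 4.98 CPM in KO_saline and fell by 0.68 ± 0.16 (adjusted p = 0.00166). The wild-type values were 26.9 ± 7.42 CPM in WT_HDM and 31.0 ± 4.70 CPM in WT_saline, overlapping groups whose difference was not called (-0.20, adjusted p = 0.371). Il13ra1, Foxa2, Il4 and Il17a were named for their roles after their values were seen.

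Most club cell markers fell in both labels, and ciliated cell markers fell or were not called. Markers of other epithelial cells changed in both directions. Of 12 club cell markers 11 fell in each label, and their summed level was 5807 to 10960 CPM in KO_HDM, 6223 to 12250 CPM in WT_HDM, 23420 to 34470 CPM in KO_saline and 19620 to 26630 CPM in WT_saline. Muc5b counts per Scgb1a1 count, Scgb1a1 being the main club cell secretoglobin, were 0.127 to 0.625 in KO_HDM and 0.00223 to 0.0200 in KO_saline, and 0.128 to 0.369 in WT_HDM and 0.0114 to 0.0590 in WT_saline (exact p = 0.00794, adjusted p = 0.0159 in each label). Of 17 ciliated cell markers 12 fell in knockout-labelled lungs and 8 in wild-type lungs, and none rose. Over all tested genes 26.2% rose and 25.7% fell in knockout-labelled lungs, and 13.6% rose and 16.5% fell in wild-type lungs. Of 6 pan-epithelial markers 0 rose and 4 fell in knockout-labelled lungs, and 1 rose and 2 fell in wild-type lungs. Of 8 alveolar type 2 markers 1 rose and 3 fell in knockout-labelled lungs. In wild-type lungs 2 of them rose and 0 fell by edgeR, where 2 had an unadjusted p under 0.05 and an estimate below 0. Tff2, Tff1 and Itln1 are also stomach or gut genes. Of 10 gastrointestinal markers 3 passed the filter. Tff1 rose in both labels. Vil1 was not called under HDM, nor was Lgals4, which averaged 2.21 CPM in KO_saline and 3.26 CPM in WT_saline. Gkn1, Gkn2 and Cdx1 had at most 1 count in any library, and Cdx2 had 0. Fabp2, Atp4a and Muc2 reached at most 5, 6 and 13 counts. The list, Tff1 included, summed to 3.64 to 8.03 CPM in KO_HDM and 4.65 to 7.45 CPM in WT_HDM. It summed to 2.96 to 4.51 CPM in KO_saline and 3.06 to 7.81 CPM in WT_saline. A stomach or gut source was not tested. Muc5b is also a gland product. Of 11 gland and serous markers 3 passed the filter. Smgc, Pip, Lpo, Prb1, Dcpp1 and Bpifb2 had at most 3 counts in any library, Dcpp2 at most 11 and Dcpp3 at most 40. Ltf, a secreted antimicrobial protein of gland and immune cells, rose in knockout-labelled lungs (2.24, adjusted p = 0.0296), with 225 ± 157 CPM in KO_HDM and 47.8 ± 36.3 CPM in KO_saline. Aqp5, a water channel of glands and alveoli, fell by 0.92 and 0.61 in knockout-labelled and wild-type lungs. The same list summed to 258 to 598 CPM in KO_HDM, 223 to 370 CPM in WT_HDM, 205 to 332 CPM in KO_saline and 165 to 595 CPM in WT_saline, with its highest values in KO_HDM 5 and WT_saline 2.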

How the data were processed

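RNA of 20 mouse lung libraries was measured by sequencing. Per the labels' protocols, RNA was selected with oligo-dT and sequenced stranded (dUTP). The authors deposited RSEM expected counts per gene, not normalized, estimated with Bowtie2 2.1.0 and RSEM 1.2.15 per the submitters' processing notes. The build named there is hg38, which is human, while the gene symbols are mouse, so the build is not known and no coordinates of the counts are given. RSEM shares reads that match several genes, and 82.3% of all values, zeros included, and 76.6% of values above 0 were whole to within 1e-06.

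Expected counts were rounded. edgeR 4.0.16 (R 4.3.3) kept genes with filterByExpr by group, took TMM factors and ran a robust quasi-likelihood F test with 1 mean per group over all 20 libraries, with Benjamini-Hochberg adjustment within each comparison. Log2 CPM for exact two-sided permutation tests used a prior count of 2, and ratios of counts added 0.5 to each count. Intervals are at 95% and, for counts, cover counting error only. Alternatives were RLE factors, no filter, DESeq2 1.42.0, limma 3.58.1 voom, a replicate block, the 10 compared libraries alone, leaving out each library, and leaving out libraries with Adipoq at 50 CPM or more; the ratios and their alternatives were added after the data were seen. The scripts were tested on simulated data. No 2 libraries of a group differed by as little as sampling noise, so each counts as 1 replicate.

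The 10 genes and all lists were chosen with earlier results of these data known. Beside them the text names Alox15, up to 4 called genes per list and comparison with the largest change, and the 10 genes most alike within groups (mean log2 CPM of 1 or more, predicted genes left out), with exceptions stated. Lengths, gene order and promoters come from reference tables and not from the study. Levels per kb used the longest protein-coding transcript of each gene.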

Additional observations from a re-analysis of the deposited data

Results flagged for a closer look

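Of 40 tests for a library far from the other 4 of its group (10 genes in 4 groups), 1 was met. Foxa3 in WT_HDM 3 stood at 5.36 CPM, against 2.37 to 3.00 CPM in the other WT_HDM libraries, with a gap of 0.713 of the group's range on the log2 scale. Chance flags about 1 in 20 such groups. WT_HDM 3 was the highest WT_HDM library for all 10 genes.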

How the results depend on the processing

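All 10 genes kept their direction under HDM in both labels under every alternative run, and the number called stayed at 10 in knockout-labelled lungs. In wild-type lungs Ern2 was lost when the 10 wild-type libraries were fitted alone (log2 fold change 2.07, adjusted p = 0.0588) and without WT_saline 5 or WT_HDM 3. Under saline the number of genes called lower between the labels, 1 in the main test (Clca3), was 0 with limma voom, with the 10 saline libraries alone and without the 5 libraries rich in Adipoq. In the interaction the number called higher, 0 in the main test, was 1 (Clca3) with DESeq2 and ranged from 0 to 1 as each library was left out. The Clca3 estimate there ranged from 3.30 to 4.14. Alox15 under HDM, not called in the main test (1.15, adjusted p = 0.107), was called with limma voom (1.32, adjusted p = 0.0107). Over all genes the number called in wild-type lungs under HDM was 4866, and 2854 with the 10 libraries alone. Between the labels it was 1080 under HDM and 576 without KO_HDM 4, and 147 under saline and 327 with DESeq2. In the interaction it was 200, 608 with DESeq2, 103 without the libraries rich in Adipoq and 79 to 260 as each library was left out. The causes were not tested.

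Estimates near 0 changed sign. Between the labels under HDM Foxa3, at -0.0022, was 0.0022 with RLE factors, 0.0054 without a filter and 0.0019 with DESeq2, and Spdef, at -0.01, was 0.069 with limma voom. Without the 5 libraries rich in Adipoq Muc5ac was -0.39, Muc5b -0.28 and Tff2 -0.41 under HDM, and Muc5ac was 0.043, Itln1 0.97, Tff2 0.18 and Ern2 0.089 under saline. In the interaction the same fit gave -0.44 for Muc5ac, -0.012 for Muc5b, -0.64 for Agr2, -0.27 for Spdef, -0.44 for Foxa3, -0.92 for Fcgbp, -2.15 for Itln1, -0.59 for Tff2 and -0.74 for Ern2. As each library was left out, the HDM contrast between labels ranged from -0.31 to 0.77 for Muc5ac, -0.25 to 0.22 for Muc5b, -0.18 to 0.18 for Spdef, -0.46 to 0.26 for Foxa3, -0.87 to 0.38 for Itln1, -0.25 to 0.49 for Tff2 and -0.51 to 0.14 for Ern2. Spdef ranged from -0.26 to 0.10 under saline and from -0.11 to 0.27 in the interaction.

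The replicate numbers were not used as pairs in the main test. Of 30 pairs of groups and numbers, 17 had deviations correlated above 0.1, and in 8 a library correlated best with its own number. The r over all 30 ran from -0.457 to 0.506. Between WT_saline and KO_saline it was 0.478, 0.257, 0.371, 0.439 and -0.013 in replicate order. Whether same-numbered libraries of some groups share a batch was not tested. With the replicate block the 10 genes were called in both HDM comparisons as without it, and under HDM the contrast between labels was -0.026 for Muc5b and 0.029 for Spdef. In the WT_HDM and WT_saline ratios of Muc5b to Muc5ac and Spdef to Foxa3, leaving out the libraries rich in Adipoq left 3 against 3 libraries, which cannot go below an exact p of 0.1 (log2 differences -3.53 and -1.51). Under saline Itln1 and Ern2 had counts as low as 1 per library, which limits their fold changes.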
